A study of Mus musculus with 18 samples.

Results

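Eicosanoids are short-lived lipid signals made from arachidonic acid. The genes described here are 10 enzymes and helpers of their synthesis: Ptgs1, Ptgs2, Ptges, Hpgds, Tbxas1, Alox5, Alox5ap, Lta4h, Ltc4s and Alox15. They were chosen by name and not by a rule on their values, because eicosanoids act in wounds and some oxidized fatty acids bind PPARg. Earlier results of these data were known when they were chosen. All 10 were found among the 26165 genes of the bone marrow table and the 26149 genes of the skin table, and all 10 passed the filter on low counts in both.

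RNA was sequenced from mouse macrophages with wild-type (WT) PPARg or with PPARg T166A, a nuclear receptor carrying a substitution of threonine by alanine. Bone marrow-derived macrophages (BMDM) were grown from C57BL/6J or PPARg T166A mice for 7 days with 50 ng/ml M-CSF (3 libraries per genotype; replicates 1 and 2 are batch B1 and replicate 3 is batch B2). Skin wound macrophages were isolated with F4/80 magnetic beads from digested dorsal skin 6 days after injury (6 libraries per genotype, no batch label). No Cre driver, drug, age or sex was given in the labels used here, and whether each library came from a separate animal was not stated, so p-values measure the spread between these libraries. The extraction protocol in the labels speaks of adipocytes differentiated in culture, while the sample labels name macrophages.

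As background, phospholipase A2 releases arachidonic acid from membranes. Cyclooxygenases (Ptgs1, constitutive in many cells, and Ptgs2, inducible) turn it into prostaglandin H2, which the terminal synthases Ptges, Hpgds and Tbxas1 convert into prostaglandin E2, prostaglandin D2 and thromboxane A2. In the other branch 5-lipoxygenase (Alox5), with its activating protein Alox5ap, makes leukotriene A4, which Lta4h converts into leukotriene B4 and Ltc4s into leukotriene C4. Alox15 oxygenates fatty acids at other positions and takes part in lipoxin synthesis.

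The BMDM libraries held 40072513 to 44152639 gene counts each, and the skin libraries 29357354 to 38774475. Macrophage markers were abundant in both sources: Lyz2, lysozyme, had 30100 ± 6670 normalized CPM in WT BMDM (SD, n = 3) and 5420 ± 480 in WT skin (SD, n = 6), and Adgre1, which encodes F4/80, had 1660 ± 191 and 884 ± 86.7. Normalized CPM are counts scaled to the TMM-adjusted library size (CPM), a scaling that assumes that most genes do not differ between libraries. The skin libraries also held RNA of other cells: the summed level of 12 fibroblast markers was 7570 to 11600 normalized CPM in WT and 6420 to 11700 in T166A, with Col3a1, a fibrillar collagen, at 3980 ± 613 in WT (SD, n = 6). In bulk RNA, fewer cells of a type and less RNA per cell cannot be told apart.

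The 250 bases before the RefSeq start sites of Ptgs2 and Ptges are printed because, of the 10 enzymes, these 2 differed most in level between BMDM and skin libraries. Capitals mark motif letters found by a search of both strands: TTGCGCAA, the palindrome bound by C/EBP factors, and GGGCGG, the GC box. The TATA box (TATAAA), the CRE core (TGACGT), a kappaB motif and a DR1 motif were searched as well and had no match in either window. The C/EBP palindrome and the GC box were picked after the sequences had been read, and a match is a description and not a binding site.
Ptgs2, GRCm38.p6 chr1:150099781-150100030, plus strand: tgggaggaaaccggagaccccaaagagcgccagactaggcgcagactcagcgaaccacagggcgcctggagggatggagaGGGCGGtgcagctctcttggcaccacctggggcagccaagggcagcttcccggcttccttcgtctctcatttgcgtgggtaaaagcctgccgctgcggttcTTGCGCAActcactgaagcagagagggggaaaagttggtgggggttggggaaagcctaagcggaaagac
Ptges, GRCm38.p6 chr2:30903298-30903547, minus strand: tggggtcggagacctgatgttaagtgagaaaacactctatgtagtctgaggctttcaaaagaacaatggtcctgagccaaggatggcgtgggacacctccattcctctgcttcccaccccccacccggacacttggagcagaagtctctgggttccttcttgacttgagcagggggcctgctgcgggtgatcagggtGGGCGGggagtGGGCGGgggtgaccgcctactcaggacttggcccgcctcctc
In Ptgs2 the C/EBP palindrome began 69 bases and the GC box 170 bases before the start, and in Ptges the GC boxes began 53 and 42 bases before it. Of 32536 RefSeq mouse promoter windows of this length, 0.166% held the palindrome and 33.0% a GC box. RefSeq windows were matched for 8 of the 10 genes.

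Among the 10 enzymes and per transcript length, the skin libraries held mostly cyclooxygenase-2 transcript, whereas BMDM held mostly that of the 5-lipoxygenase activating protein. The part of other cells in the skin levels was not tested. In WT skin Ptgs2 led with 503 ± 51.4 RPKM (normalized CPM per kilobase, SD, n = 6), followed by Alox5ap at 154 ± 10.3 and Ptges at 48.1 ± 4.02. Hpgds at 34.6 ± 4.49 and Tbxas1 at 30.8 ± 3.59 RPKM were within their spread of each other. Lta4h had 16.9 ± 1.01, Ltc4s 11.5 ± 2.06, Ptgs1 5.76 ± 0.612 and Alox5 5.32 ± 0.988 RPKM, and Ptgs1 and Alox5 lay within their spread. Alox15 was lowest at 0.439 ± 0.142 RPKM.

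In WT BMDM the order was Alox5ap at 534 ± 142, Tbxas1 at 105 ± 5.71, Lta4h at 35.4 ± 3.05 and Hpgds at 15.7 ± 3.18 RPKM (SD, n = 3). Ptgs1 at 7.71 ± 0.565, Ltc4s at 6.99 ± 1.37 and Ptgs2 at 5.52 ± 8.95 RPKM did not differ beyond their spread. Alox5 had 2.68 ± 0.279, Ptges 2.29 ± 3.05 and Alox15 0.0795 ± 0.0878 RPKM. The tables of the 2 sources were normalized separately, so these levels are set side by side with no test.

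**Figure D1:**
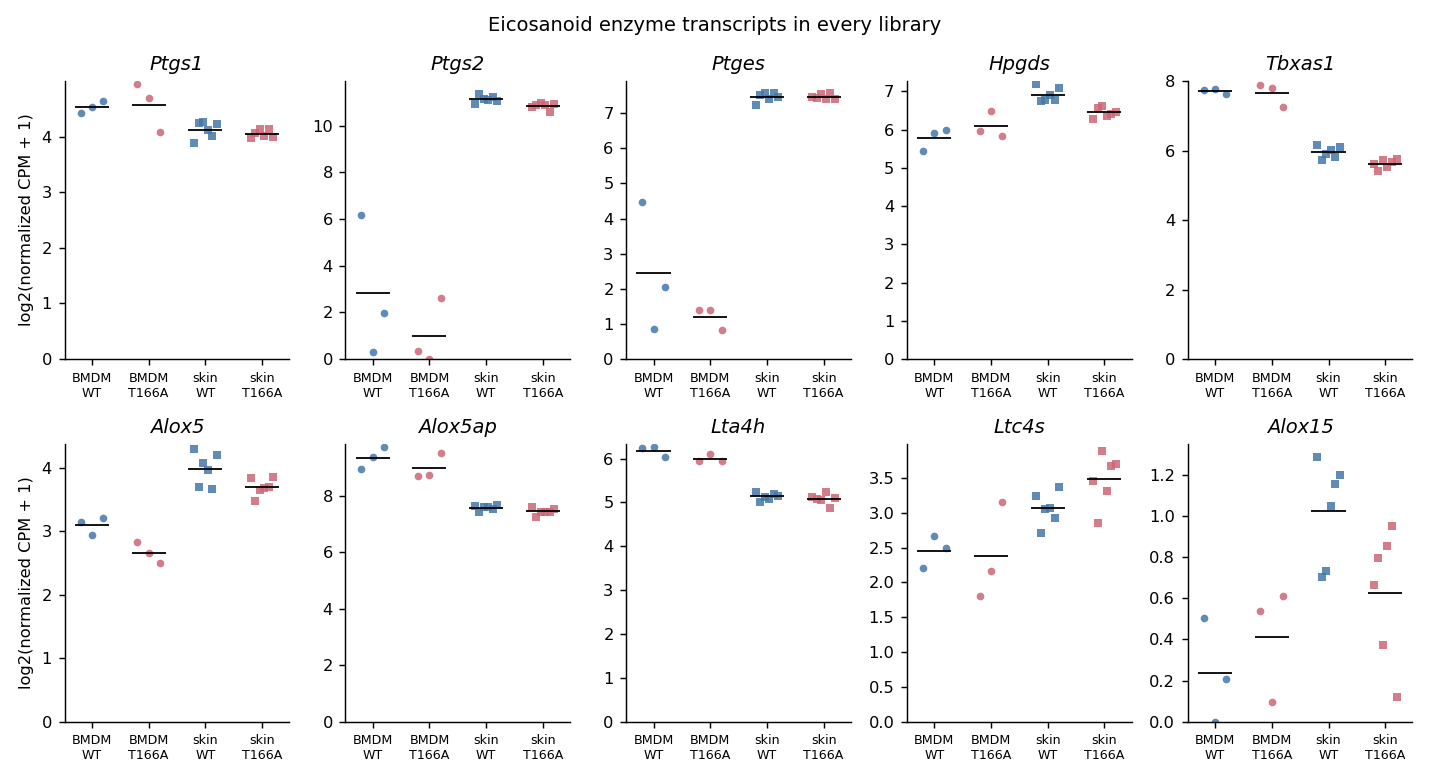
Level of each enzyme in every library, as log2(normalized CPM + 1); each point is a library and the bar is the group mean on this scale (BMDM n = 3 and skin n = 6 per genotype). Ptgs2 and Ptges stood far higher in all 12 skin libraries than in any BMDM library, and Hpgds was lower in every T166A skin library than in every WT skin library.

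The first comparison was of T166A with WT in the skin wound. In edgeR's quasi-likelihood fit of 15473 genes, with p-values adjusted by Benjamini-Hochberg, 25.9% of genes were called (12.7% higher and 13.2% lower in T166A). Among the 10 enzymes 5 were called: Hpgds, Tbxas1, Ptgs2 and Alox5 fell and Ltc4s rose. The median log2 fold change of all 10 enzymes was -0.21, against 0.01 over all genes. The groups did not overlap for 1 of the 10, Hpgds, against 12.1% of all tested genes.

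Among the cyclooxygenases, Ptgs2 in skin had 1920, 2590, 2280, 2160, 2360 and 2130 normalized CPM in WT replicates 1 to 6, and 1780, 1880, 2020, 1880, 1550 and 1930 in T166A. WT replicate 1 fell among the T166A values and the other 5 WT libraries lay above all of them. The level was 2240 ± 229 in WT and 1840 ± 160 in T166A (SD, n = 6 each), and the log2 fold change of -0.28 ± 0.07 (SE) passed edgeR's test (adjusted p = 0.00344). Ptgs1, the constitutive isoform, had 16.5 ± 1.76 and 15.6 ± 0.823 normalized CPM, a log2 fold change of -0.08 (95% interval -0.24 to 0.09; edgeR adjusted p = 0.531).

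The prostaglandin D2 synthase Hpgds had 144, 106, 109, 119, 109 and 134 normalized CPM in the WT skin replicates and 76.8, 94.3, 97.3, 81.2, 83.1 and 87.6 in the T166A replicates. Every T166A library lay below every WT library. The means were 120 ± 15.6 and 86.7 ± 7.89 (SD, n = 6 each), and the log2 fold change of -0.47 ± 0.08 (SE) passed edgeR's test (adjusted p = 0.000162).

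Tbxas1, thromboxane synthase, had 70.3, 51.7, 59.3, 63.8, 55.5 and 67.5 normalized CPM in the WT skin replicates and 47.9, 41.8, 52.2, 45, 49.9 and 53.2 in T166A. WT replicate 2 lay inside the T166A range and the rest above it. The log2 fold change was -0.34 (SE 0.07; edgeR adjusted p = 0.00146). Ptges, which makes prostaglandin E2, had 176 ± 14.7 in WT and 176 ± 9.1 in T166A (SD, n = 6 each), and the 95% interval of its log2 fold change ran from -0.11 to 0.12 (edgeR adjusted p = 0.982).

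Of the leukotriene genes, Alox5 had 18.5, 12, 15.9, 14.5, 11.7 and 17.3 normalized CPM in the WT skin replicates and 13.2, 10.1, 11.5, 11.8, 12 and 13.4 in T166A. The groups overlapped, with WT replicates 2 and 5 inside the T166A range. The log2 fold change was -0.32 (SE 0.11; edgeR adjusted p = 0.033), and the call was lost when any of 7 libraries was left out (WT 1, 3 or 6, or T166A 2, 3, 4 or 5; adjusted p = 0.0552 to 0.106). Alox5ap, which presents arachidonic acid to Alox5, had 193 ± 12.9 and 175 ± 13.9 normalized CPM (SD, n = 6 each) and was not called (log2 fold change -0.14; edgeR adjusted p = 0.0806).

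Ltc4s, the leukotriene C4 synthase, had 8.49, 5.56, 7.3, 7.42, 6.62 and 9.35 normalized CPM in the WT skin replicates and 9.97, 6.25, 13.8, 8.95, 11.8 and 12 in T166A. T166A replicates 2 and 4 lay inside the WT range and the other 4 above it. The log2 fold change was 0.49 (SE 0.16; edgeR adjusted p = 0.0349), and the call was lost when any of 7 libraries was left out (WT 2, 3, 4 or 5, or T166A 3, 5 or 6; adjusted p = 0.0633 to 0.0773). Lta4h, the leukotriene B4 enzyme, had 34.3 ± 2.05 and 32.9 ± 2.8 normalized CPM (log2 fold change -0.06; 95% interval -0.2 to 0.08; edgeR adjusted p = 0.55). Alox15 was rare, at 1.06 ± 0.341 in WT and 0.573 ± 0.324 in T166A (SD, n = 6 each), and was not called (log2 fold change -0.88, SE 0.39; edgeR adjusted p = 0.103). Lower calls came with limma-voom (-1.37; limma adjusted p = 0.0298) and with the neutrophil marker score as a covariate (-1.35; edgeR adjusted p = 0.0334). Reads of Ptgs1, Tbxas1, Alox5ap and Ltc4s cannot be told from those of genes annotated on the opposite strand over their exons, because no source used here gives the strand setting of the counting.

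**Figure D2:**
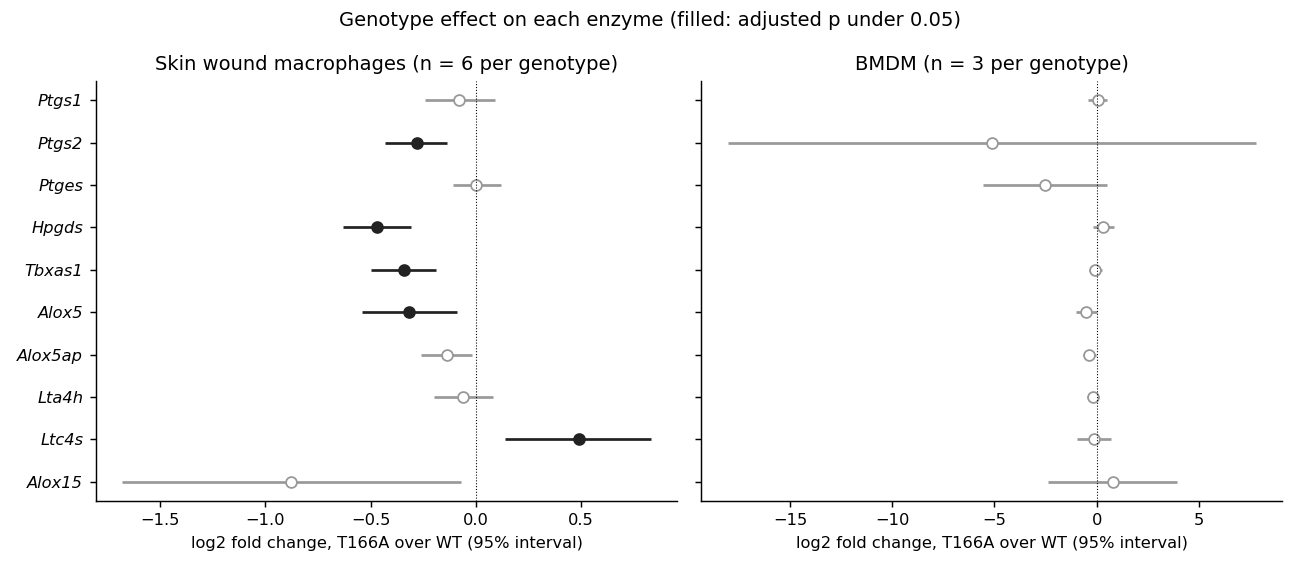
Log2 fold change of each enzyme, T166A over WT, with its 95% interval, in skin (left) and BMDM (right; the horizontal scale is wider). Filled points have an edgeR adjusted p under 0.05: Hpgds, Tbxas1, Ptgs2, Alox5 and Ltc4s in skin, and no gene in BMDM.

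Markers of cell types moved with genotype in skin. Of 12 macrophage markers 9 fell and 0 rose, and their summed level was 16200 to 19700 normalized CPM in WT and 13600 to 15600 in T166A, without overlap. Of 11 tested adipocyte markers 11 rose, with sums of 34.7 to 51.7 in WT and 84.1 to 188 in T166A. Gpd1, a glycerol phosphate dehydrogenase and the most abundant of them per length, had 6.45 ± 1.75 and 37.3 ± 14.4 normalized CPM (SD, n = 6 each). Of 10 endothelial markers 7 rose, with sums of 1210 to 1680 and 1560 to 2260.

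Cells known for single eicosanoid enzymes were checked the same way. Mast cell markers, whose cells make prostaglandin D2 and leukotriene C4, summed to 114 to 158 normalized CPM in WT and 132 to 168 in T166A: of 10 tested, the proteases Mcpt4, Cma1 and Tpsb2 fell and Kit, a growth factor receptor, rose. Most of this sum was Kit (means 52.9 in WT and 86.6 in T166A) and Hdc (54.1 and 46.5). Mcpt4 was at 4.22 and 2.23, so the sum hardly reflects the proteases. Neutrophil markers summed to 259 to 309 and 158 to 261, and 4 of 8 tested fell, S100a9 among them. Most of that sum was Csf3r (means 202 and 158), which also had 124 normalized CPM in WT BMDM. Platelet markers, whose cells make thromboxane, summed to 25 to 58.4 and 27.7 to 35.8 with 0 of 7 called and Gp6 at 0. Eosinophil markers summed to 9.25 to 13.9 and 10.3 to 18, and Prg2 rose among 4 tested.

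When the mean log2 level of the macrophage markers was added as a covariate, the calls of Hpgds (log2 fold change -0.18; edgeR adjusted p = 0.614), Tbxas1 (0.15; adjusted p = 0.571) and Alox5 (0.30; adjusted p = 0.47) were lost. Ptgs2 (-0.56; edgeR adjusted p = 0.00731) and Ltc4s (1.42; adjusted p = 0.00249) kept theirs. This covariate was chosen after seeing the data, and since it did not overlap between the genotypes, it and genotype could hardly be separated in that fit. With the adipocyte score, which also did not overlap, Hpgds alone stayed called (-1.09). Tbxas1 (-0.78; edgeR adjusted p = 0.0923) and Alox5 (-0.54; adjusted p = 0.529) had larger folds than without the score and were not called, while Ptgs2 was at 0.00 (adjusted p = 0.999) and Ltc4s at -0.48 (adjusted p = 0.714). With the neutrophil score Ptgs2 (-0.18; edgeR adjusted p = 0.1) and Ltc4s (0.52; adjusted p = 0.0715) were not called, and with the mast cell score Alox5 was not (-0.25; adjusted p = 0.186). A mast cell score from TMM-scaled levels, computed after these results had been seen, also took Tbxas1 out of the calls (-0.25; edgeR adjusted p = 0.0533). Scaling by library size alone moved the median of all genes from 0.01 to 0.096 and gave 3357 genes higher and 1308 lower. It left Hpgds, Tbxas1 and Ltc4s called, while Ptgs2 (-0.20; edgeR adjusted p = 0.0509) and Alox5 (-0.23; adjusted p = 0.0988) were not. The TMM-adjusted over the total library size was 0.946 to 1 in WT skin and 1.02 to 1.05 in T166A skin, without overlap. The part of the scored cell types in the enzyme results was not tested further.

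**Figure D3:**
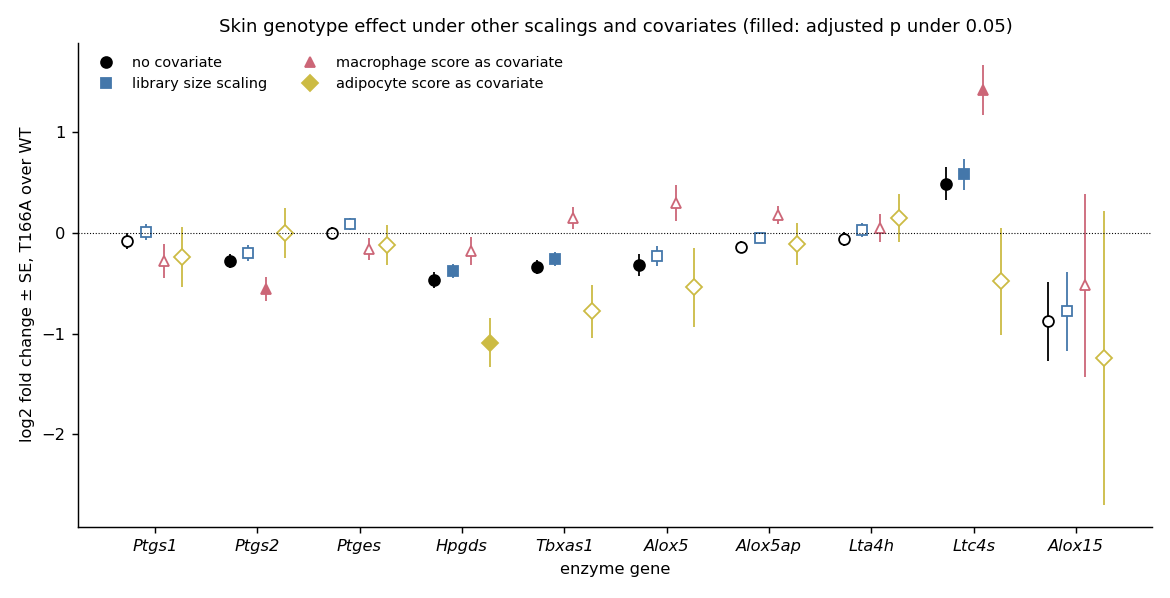
Skin log2 fold change (T166A over WT) ± SE of each enzyme without covariate, with library size scaling, and with the macrophage or adipocyte marker score as a covariate; filled points have an edgeR adjusted p under 0.05. Hpgds was called in 3 of these 4 settings, and Ltc4s ran from -0.48 to 1.42.

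The second comparison was of T166A with WT in BMDM. By edgeR's test with a batch term, 9 of 13139 genes were called, 0.0685%, and 0 of the 10 enzymes (lowest adjusted p = 0.352; median log2 fold change -0.16 against -0.02 over all genes). At an unadjusted p under 0.05 there were 1687 genes, and Alox5ap was the only enzyme among them. DESeq2 called 253 genes higher and 147 lower, and 0 of the enzymes.

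Ptgs2 was uneven among BMDM libraries. WT replicates 1, 2 and 3 had 70.6, 0.238 and 2.91 normalized CPM, and T166A replicates had 0.27, 0 and 5.06. WT replicate 1 was highest, both B2 libraries came next, the other 3 B1 libraries lay lowest, and the genotypes overlapped. The log2 fold change was -5.13 with an SE of 4.34 (edgeR adjusted p = 0.682). On the log2(normalized CPM + 2) scale T166A minus WT was -2.58 in batch B1 and 0.52 in B2. Without WT replicate 1 it was 0.02 (edgeR adjusted p = 0.996). Ptges was likewise high in WT replicate 1, with 21.2, 0.809 and 3.15 in WT and 1.62, 1.61 and 0.763 in T166A (-2.54 ± 1.17 (SE) on the log2 scale; adjusted p = 0.458 by edgeR). The difference was -0.38 (adjusted p = 0.9) without WT replicate 1 and -3.08 (edgeR adjusted p = 0.0313) without WT replicate 2.

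WT replicate 1 had 22 genes at least 5-fold above every other BMDM library, with levels under 1 CPM set to 1, and these included Ptgs2 and Ptges. T166A replicate 3 had 62 such genes, none of them an enzyme described here, and the other 4 libraries had 0. Col1a1, a fibrillar collagen and a listed fibroblast marker, was at 244 normalized CPM in T166A replicate 3 and 2.12 to 14.7 elsewhere, and the sum of the fibroblast markers was 5.19 to 49.1 in WT BMDM and 9.33 to 422 in T166A BMDM. The part of fibroblast RNA in the BMDM results was not tested. Some inflammatory genes, chosen after their values were seen, followed the same library: Il1b was at 38.4 normalized CPM in WT replicate 1 and 1.88 to 7.04 elsewhere, Cxcl2 at 79.9 and 2.39 to 5.67, and Nos2, inducible nitric oxide synthase, at 49.3 and 0 to 1.74.

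**Figure D4:**
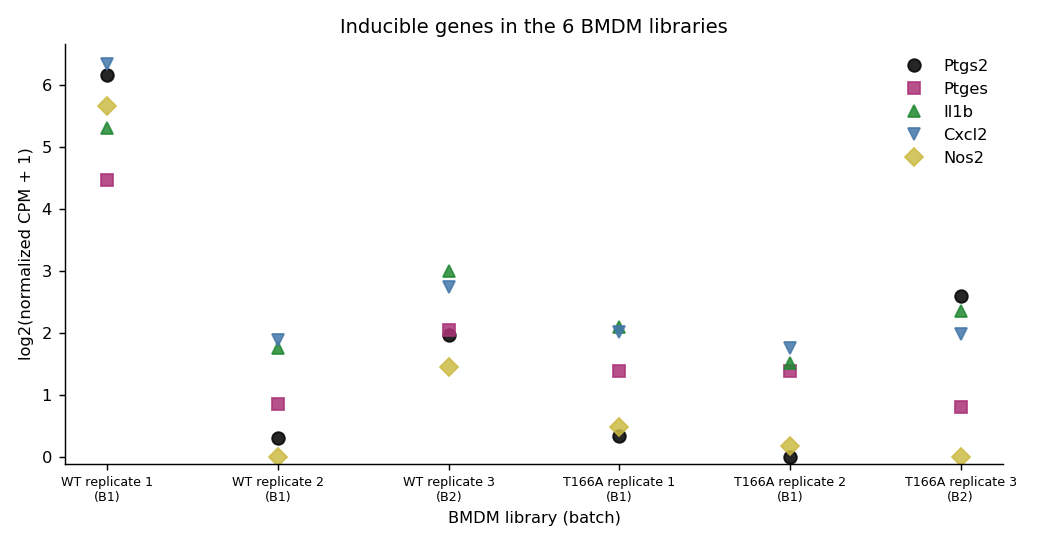
Ptgs2, Ptges and the inflammatory genes Il1b, Cxcl2 and Nos2 in the 6 BMDM libraries, as log2(normalized CPM + 1), with the batch in brackets. All 5 genes were highest in WT replicate 1, where Ptgs2 had 70.6 and Ptges 21.2 normalized CPM.

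Other BMDM enzymes were more even. Alox5ap had 495, 660 and 849 normalized CPM in WT and 422, 427 and 742 in T166A, overlapping groups (log2 fold change -0.36, SE 0.14; edgeR adjusted p = 0.352). T166A minus WT, on the scale of log2(normalized CPM + 2), was -0.43 in batch B1 and -0.19 in B2, where each genotype has 1 library. Alox5 had 7.79, 6.69 and 8.21 in WT and 6.13, 5.28 and 4.65 in T166A. Its groups did not overlap, but the share of all BMDM genes without overlap was not counted, so this is only a description. Alox5 was not called (-0.50, SE 0.23; edgeR adjusted p = 0.409).

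Tbxas1 had 215, 217 and 197 normalized CPM in WT BMDM and 235, 224 and 152 in T166A, with the B2 library lowest in both (log2 fold change -0.07; edgeR adjusted p = 0.861). Hpgds had 42.1, 58.7 and 63 in WT and 60.8, 89.3 and 56.2 in T166A, and T166A replicate 2 was highest (0.33, SE 0.22; edgeR adjusted p = 0.555). It differed by 0.55 in batch B1 and -0.16 in B2 on the log2(normalized CPM + 2) scale. Ptgs1 (0.06), Lta4h (-0.18), Ltc4s (-0.13) and Alox15 (0.78, at 0.191 and 0.348 normalized CPM) were not called, with edgeR adjusted p = 0.561 to 0.935.

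The third comparison asked whether the genotype effect differed between skin and BMDM. An edgeR interaction fit over 18 libraries called 14.3% of 16586 genes and 2 of the 10 enzymes. For Hpgds the skin effect was lower than the BMDM effect by a log2 difference of -0.76 (SE 0.20; edgeR adjusted p = 0.0157), and without BMDM T166A replicate 2 it was -0.53 (adjusted p = 0.0609). For Ptges the difference was 2.65 (SE 0.83; edgeR adjusted p = 0.0484), and without BMDM WT replicate 1 it was 0.45 (adjusted p = 0.508). Ptges lost the call in 20 of 26 alternatives, including every fit that left out a skin library. The interaction fit used 1 spread per gene for both sources. Its SE was below that of the BMDM effect fitted alone, which was 1.17 for Ptges and 0.22 for Hpgds. The interaction p-values can therefore understate the spread between BMDM libraries.

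The wider pathway was read from 73 listed genes, of which 71 were in the tables. In BMDM 0 of 47 tested were called (lowest edgeR adjusted p = 0.207; median log2 fold change -0.08). Their most abundant genes per length were Dpep2, a leukotriene D4 dipeptidase, at a mean of 357 RPKM, and Pla2g7, which hydrolyses platelet-activating factor, at 260. In skin 7 of 62 rose and 12 fell, 30.6% of those tested against 25.9% of all genes, with a median of -0.08.

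Upstream, Pla2g4a, the cytosolic phospholipase A2 that frees arachidonic acid, rose from 30.7 ± 2.15 to 42.7 ± 5.72 normalized CPM in skin (log2 fold change 0.48; edgeR adjusted p = 8.18e-05). The lysosomal phospholipase Pla2g15 fell from 144 ± 17.7 to 85.9 ± 4.92 (-0.75; edgeR adjusted p = 9.32e-08). Pla2g2d, a secreted phospholipase, also fell (-0.93; edgeR adjusted p = 0.00785). Among the genes listed as other prostanoid synthases, Akr1b8 rose (0.21) and Prxl2b fell (-0.36). The membership of Akr1b8 in that list says nothing here of its activity. Ptges3, the most abundant of the list, was not called at 130 ± 6.26 and 120 ± 12.6. Pla2g7 (-0.12) and Dpep2 (-0.11) were not called in skin either.

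The largest fold among called skin pathway genes was that of Ephx2, soluble epoxide hydrolase, which breaks down epoxides of arachidonic acid: 1.31 ± 0.18 normalized CPM in WT and 8.33 ± 1.97 in T166A (SD, n = 6 each; 6.35-fold; edgeR adjusted p = 1.39e-10). All 11 tested adipocyte markers rose too, from 1.37-fold (Lipe) to 10.8-fold (Adipoq). The part of adipocyte RNA in the Ephx2 rise was not tested. Hpgd, the dehydrogenase that inactivates prostaglandins, fell from 7.03 ± 0.817 to 3.11 ± 0.472 (log2 fold change -1.17; edgeR adjusted p = 8.36e-07). Of 8 tested breakdown and transport genes 3 rose and 2 fell (median -0.04), against 12.7% higher and 13.2% lower over all genes. Those that rose were the exporters Abcc4 (0.39; edgeR adjusted p = 0.00014) and Abcc1 (0.30; adjusted p = 0.000288) and the prostaglandin uptake carrier Slco2a1 (0.58; adjusted p = 0.00105). The omega-hydroxylase genes Cyp4f18 (-0.32) and Cyp4f16 (-0.36) fell, as did the lipoxygenase family gene Aloxe3 (-0.72) and the dipeptidase Dpep1 (-0.42).

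Of 7 tested prostanoid receptors 2 fell and 0 rose (median log2 fold change 0.05), and of 7 leukotriene and lipoxin receptors 2 fell and 1 rose (median -0.11), against 13.2% lower and 12.7% higher over all genes. Counts this small set nothing apart from that background. Cysltr1, a receptor of cysteinyl leukotrienes, went from 14.1 ± 1.2 to 9.57 ± 1.52 normalized CPM (log2 fold change -0.56; edgeR adjusted p = 0.00026), and Cmklr1, a chemerin and resolvin receptor, from 43.5 ± 3.91 to 28.4 ± 3.1 (-0.62; edgeR adjusted p = 2.53e-06). The prostaglandin E2 receptors Ptger4 (-0.39; edgeR adjusted p = 0.00082) and Ptger1 (-0.26; adjusted p = 0.00447) fell. Cysltr2 rose from 0.651 ± 0.169 to 1.16 ± 0.234 (0.84; edgeR adjusted p = 0.0283). The marker shifts given above, among them the rise of endothelial markers, apply to all these skin pathway genes, and their part was not tested.

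**Figure D5:**
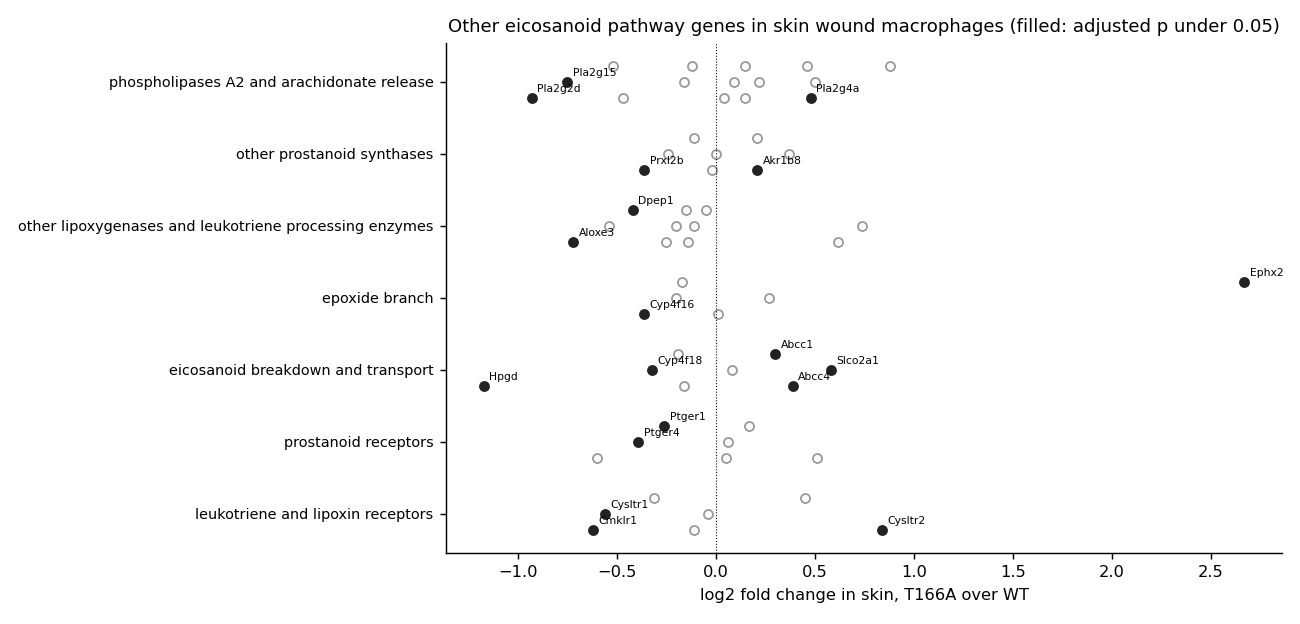
Skin log2 fold change (T166A over WT) of the other tested eicosanoid pathway genes by role; filled points have an edgeR adjusted p under 0.05 and are named, and vertical offsets within a role only separate the points. Of 62 genes 7 rose and 12 fell, with Ephx2 at 2.67 and Hpgd at -1.17 at the ends of the called range.

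Across the 12 skin libraries, with genotype means removed, the closest genes were sought for 9 enzymes; Alox15, under the minimum mean of 1 CPM, was left out. These correlations describe libraries that share depth and cell makeup, the 3 highest of 15473 genes were taken for each of the 9, and they carry no test. Alox5 ran closest to Siglec1, a macrophage lectin (Pearson r = 0.97, n = 12), and Alox5ap to Fcna and Cfp (0.97 each). Tbxas1 ran closest to Arl4c (0.96) and Ctsd, a lysosomal protease (0.95), and Ltc4s to Hilpda, Hpcal1 and Ctsl (0.95 each). Ptgs2 ran closest to Prpf4b (0.95) and Hspa5, an endoplasmic reticulum chaperone (0.94), Ptges to Map4k2 and Larp1b (0.93 each) with S100a9 next (0.92), Hpgds to Prune2 (0.95), Ptgs1 to Tgfb1i1 (0.92) and Lta4h to Plekhf2 (0.96). Among the enzymes the highest pairs were Tbxas1 with Ltc4s (0.90), whose genotype effects had opposite signs, and Alox5 with Alox5ap (0.84).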

How the data were processed

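The authors deposited raw counts per RefSeq transcript for BMDM and skin. Per the submitters' processing notes, FastQC 0.12.1, cutadapt 4.4, HISAT2 2.2.1 and featureCounts were used on mm10. No source used here gives the strand or multimapping settings. Unmatched transcripts (0.514% and 0.187% of counts) were left out, and each gene took its transcript with the highest summed CPM. edgeR 4.0.16 in R 4.3.3 was used (TMM, filterByExpr minimum count 10 and total 15, robust quasi-likelihood test, Benjamini-Hochberg, threshold 0.05), with batch and genotype in BMDM and genotype in skin. RPKM used the longest matched GENCODE transcript. The test was also run on simulated counts with the same dispersion for all genes, no batch effect and no outlying library. That run does not cover uneven genes such as Ptgs2 in BMDM. With group means but not batch removed, same-numbered BMDM libraries correlated at r = 0.115 to 0.2, so pairing was not separated from shared batch. Skin ones were at -0.045 to 0.09.

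The genes and lists were chosen with earlier results of these data known. Named genes were all 10 enzymes, up to 5 called pathway genes per direction and source by smallest adjusted p, the most abundant gene per list, and the 3 closest genes per enzyme; further called pathway genes were named after their values were seen. Alternatives covered normalization, filter, DESeq2 1.42.0, limma 3.58.1, summed transcripts, length trend, replicate block, each library left out and marker scores. Marker scores were first computed from CPM scaled by library size; versions from TMM-scaled CPM were added after those results had been seen, and both are given.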

Additional observations from a re-analysis of the deposited data

Results flagged for a closer look

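The edgeR interaction test called a difference in genotype effect between skin and BMDM for 2 enzymes. It used 1 spread per gene for both sources, so its p-values can understate the spread between BMDM libraries. For Ptges the skin effect exceeded the BMDM effect by 2.65 on the log2 scale (adjusted p = 0.0484), with BMDM WT replicate 1 at 21.2 normalized CPM and the other 5 BMDM libraries at 0.763 to 3.15. For Hpgds the difference was -0.76 (edgeR adjusted p = 0.0157), with a skin effect of -0.47 and a BMDM effect of 0.33 that was not called. No skin library stood apart from its group by Dixon's test in the 20 enzyme groups examined.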

How the results depend on the processing

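In skin the fall of Hpgds was called in 29 of 31 alternatives, Ptgs2 and Tbxas1 in 26 each, the rise of Ltc4s in 19 and the fall of Alox5 in 15. The exceptions for Hpgds were both macrophage scores. Low counts limit Alox15, with 0 to 47 counts per library, and in BMDM also Ptgs2, with 0 to 12 counts in 3 libraries, and Ptges, with 32 to 72 in 4.

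Scaling by library size (chosen after seeing the data) gave 3357 skin genes higher and 1308 lower, with 2 enzymes lower, and put Ptgs1 at 0.01 and Lta4h at 0.03. limma-voom left 0 enzymes higher and called Alox15 lower (-1.37). The macrophage score (also chosen after seeing the data) left 236 genes higher and 289 lower with 1 enzyme lower, and put Ptges at -0.16, Tbxas1 at 0.15, Alox5 at 0.30, Alox5ap at 0.18 and Lta4h at 0.05. The adipocyte score left 200 and 421 genes with 0 enzymes higher and 1 lower, and put Ptges at -0.12, Lta4h at 0.15 and Ltc4s at -0.48. The neutrophil score left 0 enzymes higher, put Ptgs1 at 0.01 and called Alox15 lower (-1.35). The cause of these shifts was not tested.

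The marker scores above used CPM scaled by library size. With TMM-scaled scores, added after the first versions had been seen, the macrophage score left 249 and 298 genes with 1 enzyme lower (Ptges -0.16, Tbxas1 0.16, Alox5 0.31, Alox5ap 0.18, Lta4h 0.04, and Hpgds not called at -0.16, adjusted p = 0.659 by edgeR). The adipocyte score left 234 and 447 genes with 0 enzymes higher and 1 lower (Ptgs2 0.01, Ptges -0.09, Lta4h 0.12, Ltc4s -0.49). The mast cell score left 1261 and 1348 genes with 2 enzymes lower, took Tbxas1 out of the calls (-0.25, edgeR adjusted p = 0.0533) and put Lta4h at 0.00. The neutrophil score left 0 enzymes higher, put Ptgs1 at 0.03 and called Alox15 lower (-1.45). Ptges in skin, at 0.00, also took the other sign with both keratinocyte and fibroblast scores (-0.03 and -0.06), RLE (0.00), DESeq2 (0.00), limma-voom (-0.01) and the length trend (-0.03).

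With the replicate block in skin, 2248 genes rose and 2301 fell and Alox5ap was called (-0.14; edgeR adjusted p = 0.0149). The enzymes called without the block stayed called. Adjusted p by edgeR was 0.01 for Alox5 (-0.31) and 0.00306 for Ltc4s (0.47), lower than without it, and 0.00347 for Hpgds (-0.47), higher than without it. Same-numbered skin libraries correlated at r = -0.045 to 0.09 over all tested genes, which does not settle whether the numbers pair them. In BMDM same-numbered libraries correlated at r = 0.115 to 0.2 with batch not removed. With the replicate block there, 8 genes rose and 2 fell, and no enzyme call changed (Ptges -1.71, Ptgs2 -3.30). The replicate block for BMDM in the interaction, added after seeing the data, gave 1376 genes higher and 1758 lower, and the same enzymes were called (Ptges 2.08, edgeR adjusted p = 0.0337; Hpgds -0.76, adjusted p = 0.0032).

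Counts of BMDM genes called higher and lower, against 8 and 1, were 9 and 2 with RLE, 84 and 21 with no filter, 13 and 2 with a minimum count of 50, 253 and 147 with DESeq2, 113 and 19 with limma-voom, 0 and 0 with summed transcripts, 17 and 2 with the length trend removed, 16 and 3 with that and the replicate block, 0 and 0 with no batch term, and 21 and 0 in batch B1 alone. Tbxas1 in BMDM was at 0.04 with the length trend removed, with or without the block, 0.00 with limma-voom and 0.09 in batch B1. Ltc4s in BMDM was at 0.18 with the length trend removed, with or without the block, and 0.03 with no batch term.

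Leaving out each library in turn gave 0 to 18 BMDM genes higher, 0 to 8 lower and 0 to 1 enzymes lower. BMDM values ran from -0.11 to 0.36 for Ptgs1, -7.99 to 0.02 for Ptgs2, -0.13 to 0.09 for Tbxas1 and -0.58 to 0.16 for Ltc4s. In skin 0 to 1 enzymes were higher and 3 to 5 lower, and Ptges ran from -0.04 to 0.03. In the interaction 0 to 2 enzymes were called in each direction and 684 to 1870 genes were higher, with Ptgs1 at -0.37 to 0.07 and Ptgs2 at -0.86 to 7.77. For the interaction, enzymes called higher numbered 0 with RLE, no filter and limma-voom and 2 with DESeq2, and limma-voom called 521 genes higher and 669 lower.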
